A study of Mus musculus with 6 samples.

Results

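The nuclear genes of respiratory complex III, complex IV and the ATP synthase were followed in mouse breast carcinoma cells in which a LINE-1 retrotransposon could be switched on. Members were the rows of the count table whose symbol began with Uqcr, with Cox4 to Cox8 or with Atp5, which gave 43 of 24421 genes. Complex III contributed 8 symbols, complex IV 18 and the ATP synthase 17. The Atp5 pattern also took in Atp5s and Atp5sl, which are not subunits of the enzyme, and these are given apart below. Genes encoded in the mitochondrial genome were not analysed here.

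The cells were 4T1-tetL1(GLucAI), a stable population of the 4T1 line (strain label BALB/cfC3H) that carried a PiggyBac cassette with a recoded mouse LINE-1 under a doxycycline-inducible promoter, a Gaussia luciferase reporter of retrotransposition and the Tet-On 3G transactivator driven by EF1α. Both groups carried the cassette. 3 libraries came from untreated cells (the treatment label reads Vehicle) and 3 from cells given 400 ng/mL doxycycline for 48 h, and the study describes them as biological triplicates. Total RNA was sequenced after removal of ribosomal RNA. No group received doxycycline without an inducible LINE-1, so the drug and the element cannot be told apart, and the cassette transcript was not analysed here, so the labels could not be checked against it.

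Complex III takes electrons from ubiquinol and hands them to cytochrome c, complex IV passes them from cytochrome c to oxygen, and both pump protons across the inner mitochondrial membrane. The ATP synthase lets the protons flow back through a ring of c subunits and uses that rotation to make ATP. Apart from the subunits encoded in mitochondrial DNA, these enzymes are built from nuclear gene products, and several complex IV subunits exist as a common isoform and a second one known from muscle, lung or testis. Nuclear respiratory factor 1 and the ETS factor GABPA are known regulators of many of these genes.

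The 3 genes for subunit c are shown first because they end in one shared protein. Atp5g1, Atp5g2 and Atp5g3 encode different import sequences, and the last 78 residues, the mature subunit c and a few residues before it, were identical in the 3 annotated coding sequences. The 237 bases that encode them and the stop codon are given 5′ to 3′ from the GRCm38 transcripts, with capitals at the 64 positions where the genes differ.
Atp5g1: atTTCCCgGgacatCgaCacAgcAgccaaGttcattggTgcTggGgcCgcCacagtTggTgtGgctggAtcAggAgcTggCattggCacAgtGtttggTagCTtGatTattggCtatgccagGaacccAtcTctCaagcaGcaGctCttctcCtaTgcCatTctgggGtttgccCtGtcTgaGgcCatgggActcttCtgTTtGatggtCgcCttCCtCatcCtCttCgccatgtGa
Atp5g2: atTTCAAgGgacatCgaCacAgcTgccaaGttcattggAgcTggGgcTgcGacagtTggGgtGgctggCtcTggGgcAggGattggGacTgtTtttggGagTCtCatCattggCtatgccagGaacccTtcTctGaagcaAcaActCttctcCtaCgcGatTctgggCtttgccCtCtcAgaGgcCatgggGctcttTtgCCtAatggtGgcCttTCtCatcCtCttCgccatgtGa
Atp5g3: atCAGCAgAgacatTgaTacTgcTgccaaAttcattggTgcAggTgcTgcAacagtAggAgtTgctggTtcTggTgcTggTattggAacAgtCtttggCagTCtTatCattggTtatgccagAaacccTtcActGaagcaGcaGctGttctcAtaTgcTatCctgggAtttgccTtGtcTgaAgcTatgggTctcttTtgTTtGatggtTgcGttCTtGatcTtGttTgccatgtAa

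Over this stretch Atp5g2 differed from Atp5g1 at 36 positions and Atp5g3 at 51. The longest run shared with another of the 3 genes was 21 bases for Atp5g1 and Atp5g2 and 11 bases for Atp5g3. The same protein was thus encoded by RNAs that share no 50-base stretch within it.

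Promoters are shown for Cox6a1, one of the complex IV genes with the most negative log2 fold changes, and for Cox6b1 and Cox6b2, the abundant and the near-silent gene for subunit 6B. Each is the 250 bases before the RefSeq start on GRCm38.p6, on the minus strand, and capitals mark the ETS core CCGGAAG and the NRF1 core GCATGCGC on either strand. Cox6a1 lies at chr5:115348959-115349208, Cox6b1 at chr7:30626115-30626364 and Cox6b2 at chr7:4753095-4753344.
Cox6a1: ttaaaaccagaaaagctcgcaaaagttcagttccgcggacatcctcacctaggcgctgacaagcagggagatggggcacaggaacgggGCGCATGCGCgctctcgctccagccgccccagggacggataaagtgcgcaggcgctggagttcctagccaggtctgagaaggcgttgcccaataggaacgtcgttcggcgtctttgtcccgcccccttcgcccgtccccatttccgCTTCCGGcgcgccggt
Cox6b1: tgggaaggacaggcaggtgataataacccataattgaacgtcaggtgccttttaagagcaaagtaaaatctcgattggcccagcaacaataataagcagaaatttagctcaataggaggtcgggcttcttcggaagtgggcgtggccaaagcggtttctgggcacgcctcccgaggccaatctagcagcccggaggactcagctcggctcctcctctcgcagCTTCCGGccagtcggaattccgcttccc
Cox6b2: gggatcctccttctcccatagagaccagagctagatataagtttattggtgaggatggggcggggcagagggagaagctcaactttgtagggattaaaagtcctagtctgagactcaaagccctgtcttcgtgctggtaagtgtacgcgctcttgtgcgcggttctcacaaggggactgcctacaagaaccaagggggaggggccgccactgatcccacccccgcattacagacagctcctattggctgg

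The Cox6a1 window held both motifs, with the NRF1 core in overlapping matches on both strands, Cox6b1 held the ETS core alone and Cox6b2 held neither. RefSeq promoters of 300 bases (250 before and 50 after the start) were matched for 31 of the 43 members, which gave 34 promoters. The ETS core was found in 10 of these, or 29.4%, against 8.86% of all 32851 promoters. The NRF1 core was found in 6, or 17.6%, against 2.71%. CCAAT was found in 18, or 52.9%, against 37.41%, and GGGCGG in 10, or 29.4%, against 35.66%. The YY1 core AAGATGGC was found in 2, or 5.9%, against 2.75%, and the hypoxia response core ACGTG in 9, or 26.5%, against 19.62%. Both the ETS and the NRF1 core were found in Atp5k, Atp5l, Cox6a1 and Uqcr11. These are matches of letters, and no binding was measured. Atp5b, the most abundant member in CPM, held CCAAT and GGGCGG but neither the ETS nor the NRF1 core. A link of either core to RNA level was not tested.

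Library totals ran from 31653464 to 43631312 counts, and the 43 members took 0.524% to 0.569% of them. The 45S rRNA precursor Rn45s took 8.83% to 12.11%. Levels are given in CPM, the usual depth-scaled read count, here with TMM scaling. The epithelial marker list (6 of 6 genes with counts) summed to 1806 to 1893 CPM in untreated and 1754 to 1983 in doxycycline libraries. Fibroblast markers (5 of 6, Lum at 0) summed to 35.7 to 38.7 against 28 to 29.6 CPM, and leukocyte markers (6 of 6) to 25.7 to 28.4 against 20.8 to 23.5 CPM. Both of these sums were lower in every doxycycline library, but each followed a single gene. Pdgfra alone had 36.7 against 27.8 CPM, and the defining fibroblast genes Col1a1, Col1a2, Pdgfrb and Dcn were under 1 CPM in every library. Cd14 had 17.2 against 12.3 CPM and Cd68 9.9 against 9.52, and the leukocyte genes Ptprc, Lyz2 and Cd3e were under 1 CPM in every library. In each of the 3 lists 1 gene passed the edgeR test, lower: Krt19 (adjusted p = 0.00782), Pdgfra (0.000952) and Cd14 (0.00482). Krt19 did not pass without untreated replicate 2 (0.0713) or doxycycline replicate 3 (0.0799), nor Cd14 without untreated replicate 1 (0.0656). The part of these markers in the values of the respiratory genes was not tested. A lower level in a culture can also not be told apart from fewer cells of a kind that expresses the gene.

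Of the 43 members, 37 had enough counts for the edgeR quasi-likelihood test. None passed an adjusted p of 0.05 (Benjamini-Hochberg over 13084 genes), where 3.09% of all tested genes did, 0.925% higher and 2.16% lower. At an unadjusted p under 0.05, 4 members were lower and 0 higher, which was 10.8% lower against 8.95% of all tested genes (7.25% of all genes were higher and 16.2% either). DESeq2's Wald test placed 1 member, Atp5l, below the adjusted threshold, and limma voom placed 0. In 6 members, or 16.2%, every doxycycline library lay below every untreated one, and in 0 the reverse, against 11.1% and 10.1% of all tested genes. In this main fit the shares of members called in edgeR and of members lower at the unadjusted threshold were near or under the background. The unadjusted count moved with the setting. Without doxycycline replicate 1, 12 of 37 members were lower, against 9.85% of all tested genes. It was 9 without doxycycline replicate 2 (10.2% of all genes) and 7 with upper-quartile scaling (9.78%). Without untreated replicate 1 it was 2 (7.27%).

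The log2 fold changes of doxycycline against untreated ran from -0.18 (Atp5l) to 0.26 (Cox7a1), and their median was -0.04, against 0.00 over all tested genes. In 28 of 37 members, or 75.7%, the value was below 0, where 49.2% of all tested genes were. The 95% interval lay within 0.25 of 0 on the log2 scale for 31 members, so that changes beyond a 15.4% fall or a 13.8% rise lay outside the intervals of those genes. It lay within 0.5 for 35, all but Atp5k and Cox7a1. The lean below 0 was smallest without untreated replicate 1, which was the highest of the 6 libraries for 19 of the 37 members. Without that library 21 members were below 0 and the median was -0.01. With any other library left out, 25 to 31 members were below 0 and the median was -0.082 to -0.028.

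**Figure D1:**
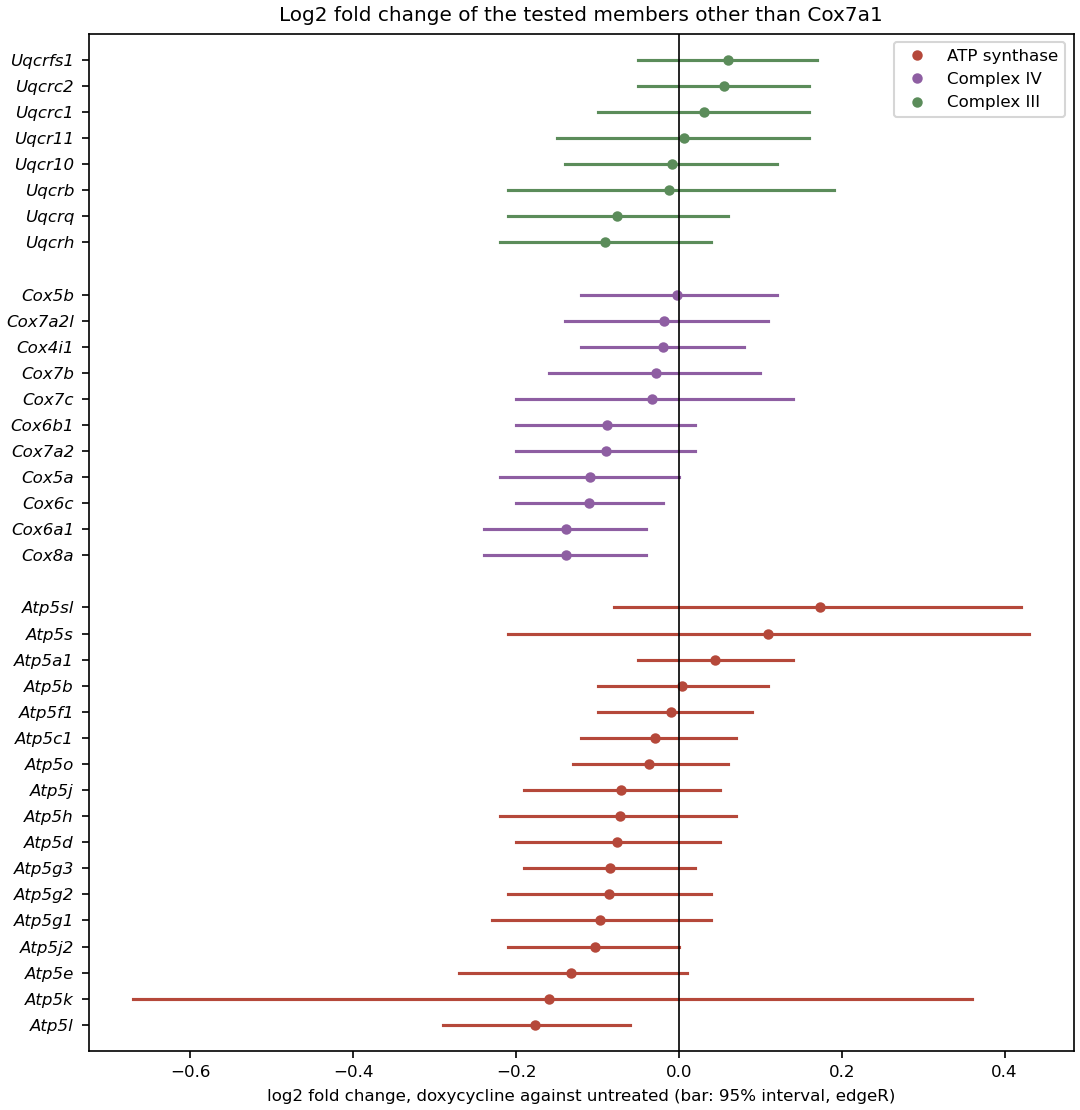
Log2 fold change of doxycycline against untreated for 36 tested members, by complex, with the 95% interval of the edgeR fit as bars (3 libraries per group). Complex III values scatter around 0, and 11 of 11 complex IV values shown lie below 0, with no member past an adjusted p of 0.05.

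With all libraries in the fit, complex III had the median nearest to 0. Its 8 members were tested, 4 values lay above 0 and 4 below, the median log2 fold change was 0.00 to 2 decimals (-0.002), and 0 passed the edgeR test at either the adjusted or the unadjusted threshold. All 8 intervals lay within 0.25 of 0. The median was -0.05 without doxycycline replicate 1. Without untreated replicate 1 it was 0.054, farther from 0 than complex IV at -0.017 and the ATP synthase at -0.031. The 3 catalytic and core genes had values of 0.03 to 0.06 and the 5 accessory subunits of -0.09 to 0.01. Uqcrc1, Uqcrb, Uqcr10 and Uqcr11 changed sign under other settings, and the difference between these subgroups was not tested.

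Uqcrfs1 had 94.5, 90.7 and 93.9 CPM in the untreated and 93.6, 93.5 and 104 CPM in the doxycycline libraries. Uqcrfs1, the Rieske iron-sulphur protein that passes electrons to cytochrome c1, had 93.1 ± 2.03 CPM in untreated and 97.0 ± 5.98 CPM in doxycycline libraries (SD, n = 3 each). The log2 fold change was 0.06 with an SE of 0.05 (adjusted p = 0.628 in edgeR), and the groups overlapped. The core proteins Uqcrc1 and Uqcrc2 had log2 fold changes of 0.03 and 0.06. Uqcrc1 was the lowest in doxycycline replicate 1, at 159 CPM, and the highest in doxycycline replicate 2, at 199 CPM, so its whole range lay within the treated group.

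Uqcrh had 77.1, 63.8 and 69.8 CPM in the untreated and 64, 66.3 and 67.8 CPM in the doxycycline libraries. Uqcrh, the hinge protein next to cytochrome c1, thus had the most negative value of the complex, a log2 fold change of -0.09 with an SE of 0.06 (adjusted p = 0.519 in edgeR), and its groups overlapped. Uqcrq had 56.6, 55.8 and 57.6 CPM in the untreated and 52.2, 58.8 and 50.1 CPM in the doxycycline libraries. Uqcrq, a small subunit of the membrane part, had a log2 fold change of -0.08 with an SE of 0.06 (adjusted p = 0.601 in edgeR). Uqcrb, Uqcr10 and Uqcr11, also small accessory subunits, had values of -0.01, -0.01 and 0.01. Cyc1, the cytochrome c1 gene that the symbol pattern misses, had 85.1 ± 3.80 against 87.4 ± 2.37 CPM (SD, n = 3 each). The 6 complex III assembly factors had 0 calls in the edgeR test, 0 at an unadjusted p under 0.05 and a median of -0.03.

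Complex IV lay below 0 in nearly every subunit. Of its 18 members 12 were tested, 11 had values below 0 and 1, the low-count Cox7a1, above, with a median log2 fold change of -0.06. None passed the adjusted threshold of the edgeR test. At an unadjusted p under 0.05, 3 were lower (Cox8a, Cox6a1 and Cox6c), and in 4 (these and Cox5a) the groups did not overlap, where 8.95% and 11.1% of all tested genes were lower in these ways. The 11 members other than Cox7a1 had intervals within 0.25 of 0. The median stayed below 0 when any 1 library was left out, from -0.13 without doxycycline replicate 1 and -0.10 without untreated replicate 2 to -0.02 without untreated replicate 1 and -0.03 without doxycycline replicate 3.

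Cox8a had 220, 213 and 220 CPM in the untreated and 197, 187 and 210 CPM in the doxycycline libraries. All doxycycline libraries lay below all untreated ones for Cox8a, the smallest subunit, at chr19:7215153-7217616 (GRCm38, minus strand), with a log2 fold change of -0.14 with an SE of 0.05 and a 95% interval of -0.24 to -0.04 (adjusted p = 0.135 in edgeR). Cox6a1 had 127, 116 and 124 CPM in the untreated and 114, 109 and 111 CPM in the doxycycline libraries. Cox6a1, the common isoform of subunit 6A at chr5:115345642-115348981 (minus strand), had the same fold change of -0.14 with an SE of 0.05 (adjusted p = 0.148 in edgeR), with doxycycline replicate 1 only a little below untreated replicate 2. Cox6c had 355, 342 and 352 CPM in the untreated and 337, 323 and 312 CPM in the doxycycline libraries. Cox6c, a single-isoform membrane subunit at chr15:35925886-35938246 (minus strand), had a log2 fold change of -0.11 with an SE of 0.04 (adjusted p = 0.214 in edgeR). It overlaps Vps13b on the other strand. Cox5a had 98.3, 92.5 and 93.4 CPM in the untreated and 90.3, 82 and 91.5 CPM in the doxycycline libraries. For Cox5a, a matrix-side subunit, the highest doxycycline library fell just short of the lowest untreated one, and the log2 fold change was -0.11 with an SE of 0.05 (adjusted p = 0.329 in edgeR).

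**Figure D2:**
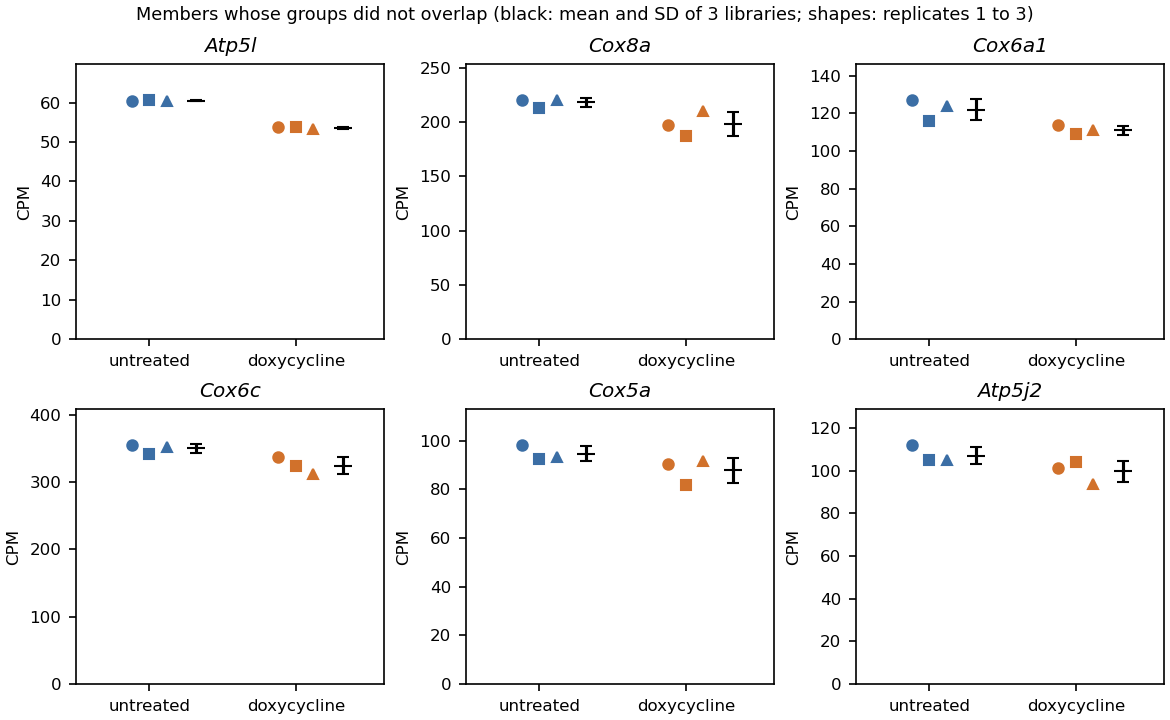
CPM (TMM-scaled, axis from 0) in each library for the 6 members whose groups did not overlap, with shapes for replicates 1 to 3 and the mean and SD of 3 libraries in black. Atp5l has the tightest groups, 60.4 to 60.6 against 53.2 to 53.7 CPM, a spread under its counting error, and in Atp5j2 the groups nearly touch.

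The other complex IV subunits were closer to 0. Cox7a2 and Cox6b1 both had a log2 fold change of -0.09, Cox7c and Cox7b both -0.03, and Cox4i1 -0.02. Cox5b, which binds zinc, had 76.4 CPM in both groups. Cox7a2l, known for joining complexes III and IV into supercomplexes, had a value of -0.02. The 23 tested genes listed as complex IV assembly factors had 0 calls in the edgeR test and a median of -0.03. Before adjustment 3 of them were lower, against a background of 8.95% over all tested genes. The list held Ndufa4, in fact a complex IV subunit that the symbol pattern misses. Ndufa4 had 118 ± 7.90 against 108 ± 7.30 CPM (SD, n = 3 each) and a log2 fold change of -0.12 (adjusted p = 0.305 in edgeR).

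The ATP synthase genes also lay mostly below 0. All 17 were tested, 13 values were below 0 and 4 above, with a median log2 fold change of -0.07. The median was -0.08 for the 15 subunits that the symbol pattern took in, of which 13 were below 0. None passed the adjusted threshold of the edgeR test, and 1, Atp5l, was lower at an unadjusted p under 0.05, where 8.95% of all tested genes were. In 2, Atp5l and Atp5j2, the groups did not overlap, against 11.1% of all tested genes. The median was -0.03 without untreated replicate 1 and -0.04 without doxycycline replicate 3. By part of the enzyme, values were below 0 in 3 of 5 head and central stalk genes, 4 of 4 peripheral stalk genes, 3 of 3 c ring genes and 3 of 3 membrane subunits e, f and g. Differences between the parts were not tested.

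Atp5l had 60.5, 60.6 and 60.4 CPM in the untreated and 53.7, 53.7 and 53.2 CPM in the doxycycline libraries. The groups were narrow and apart for Atp5l, which encodes subunit g of the membrane dimer interface and lies at chr9:44912557-44920742 (minus strand). Atp5l had SDs of 0.119 and 0.302 CPM on 1706 to 2658 counts per library, less than counting error alone would give. The narrowness is therefore not taken as a trait of Atp5l. Its log2 fold change was -0.18 with an SE of 0.05 and a 95% interval of -0.29 to -0.06 (adjusted p = 0.0846 in edgeR), a level 11.6% lower. It passed only with DESeq2's Wald test (adjusted p = 0.0462), and its adjusted p ranged from 0.0462 to 0.259 over the alternatives run. Of its 50-base stretches 84.8% also occur in other annotated genes, mainly pseudogenes, so its reads could be shared with them. Atp5j2 had 112, 105 and 105 CPM in the untreated and 101, 104 and 93.9 CPM in the doxycycline libraries. In Atp5j2, subunit f, the gap between groups was small, and the log2 fold change was -0.10 with an SE of 0.05 (adjusted p = 0.336 in edgeR). Atp5k had 40.4, 30.6 and 36.6 CPM in the untreated and 41.7, 25 and 30.3 CPM in the doxycycline libraries. Atp5k, subunit e, varied most of the subunits, with the highest library 1.67 times the lowest, both in the doxycycline group, and a log2 fold change of -0.16 with an SE of 0.21 (adjusted p = 0.783 in edgeR). This value was -0.38 when doxycycline replicate 1 was left out, -0.005 when doxycycline replicate 2 was, -0.062 without untreated replicate 1 and -0.258 without untreated replicate 2.

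The large head subunits were the most abundant members in CPM and lay near 0. Atp5b had 1033, 986 and 997 CPM in the untreated and 934, 1083 and 1007 CPM in the doxycycline libraries. The spread of Atp5b, the catalytic beta subunit, was widest within the doxycycline group, and its log2 fold change was 0.00 to 2 decimals with an SE of 0.05 (adjusted p = 0.979 in edgeR). Atp5a1, the alpha subunit, had 515 ± 19.7 against 531 ± 27.5 CPM (SD, n = 3 each). Atp5c1, the gamma subunit of the rotor, had a log2 fold change of -0.03. Atp5e and Atp5d, the small epsilon and delta subunits of the rotor, had values of -0.13 (edgeR adjusted p = 0.333) and -0.08 (edgeR adjusted p = 0.574). Atp5d passed the edgeR test only without doxycycline replicate 2, at -0.16 (adjusted p = 0.0358).

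In the peripheral stalk, which keeps the head from turning, Atp5h (subunit d) and Atp5j (coupling factor 6) both had a log2 fold change of -0.07, Atp5o (OSCP) -0.04 and Atp5f1 (subunit b) -0.01. Atp5f1 was the steadiest member, with the highest library 1.07 times the lowest. The 3 c ring genes had nearly one value, -0.10 for Atp5g1, -0.09 for Atp5g2 and -0.08 for Atp5g3.

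The 2 non-subunits were the least abundant tested Atp5 symbols. Atp5sl had 7.83, 6.62 and 7.58 CPM in the untreated and 7.67, 8.87 and 8.33 CPM in the doxycycline libraries. Atp5sl, also named Dmac2 and known as a complex I assembly factor, had a log2 fold change of 0.17 with an SE of 0.12 (adjusted p = 0.512 in edgeR), and its groups overlapped. Atp5s had 4.32 ± 0.720 against 4.66 ± 0.263 CPM (SD, n = 3 each). The 6 genes listed as assembly factors or inhibitor of the ATP synthase had 0 calls in the edgeR test, 1 unadjusted lower value and a median of 0.02. Of all tested genes 8.95% were lower at that unadjusted threshold. The 1 lower gene was Usmg5, in fact a membrane subunit that the symbol pattern misses. It had 108 ± 9.20 against 97.4 ± 10.1 CPM (SD, n = 3 each) and a log2 fold change of -0.15 (adjusted p = 0.276 in edgeR).

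Summed over their subunits per kilobase of transcript, the 3 complexes differed little between groups. Complex III came to 764 ± 49.4 CPM per kb in untreated and 761 ± 11.2 in doxycycline libraries (SD, n = 3 each). Complex IV came to 2717 ± 99.1 against 2562 ± 82.6 and the ATP synthase to 2372 ± 79.8 against 2294 ± 40.9. The complex IV sum was 2812, 2615 and 2725 in the untreated and 2657, 2503 and 2527 in the doxycycline libraries, so the groups overlapped. They also overlapped for complex III, and for the ATP synthase they met at 2319.

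Levels within a complex were far from equal. Per kilobase, complex III was the most even, from 36.3 CPM per kb for Uqcrq to 136 for Uqcrb, a 3.75-fold span. Complex IV, leaving out the 7 restricted isoforms, ran from 69.7 for Cox7a2l to 670 for Cox6c, a 9.61-fold span, with Cox4i1 and Cox8a next at 380 and 378, which do not differ beyond their spread. The ATP synthase ran from 11.9 for Atp5g1 to 525 for Atp5b, a 44.1-fold span that depends on the 4715-base Atp5g1 transcript used as its length. The next after Atp5b were Atp5g3 at 243 and Atp5a1 at 212. The alpha and beta subunits, present in equal number in the enzyme, had RNA levels of 212 and 525 CPM per kb.

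**Figure D3:**
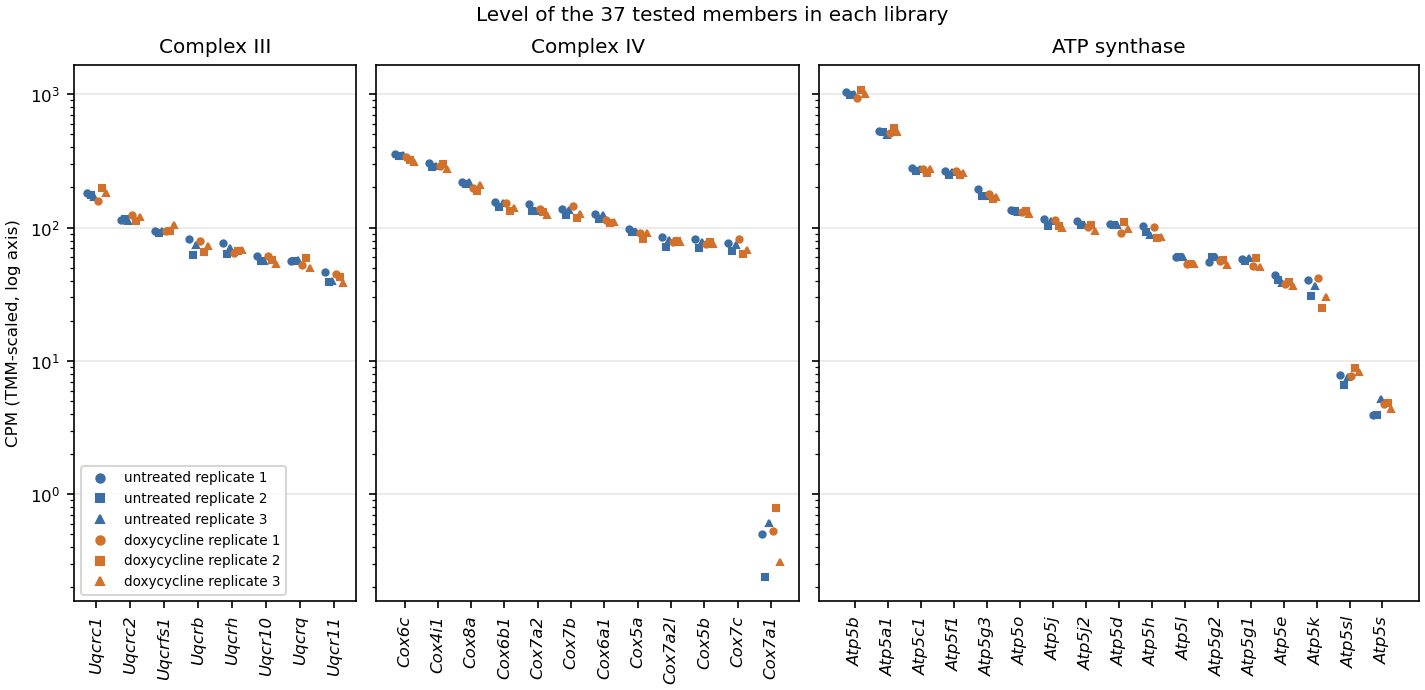
CPM (TMM-scaled, log axis) of the 37 tested members in each of the 6 libraries, by complex and ordered by mean level. Apart from Cox7a1, Atp5s and Atp5sl, the levels lie between 25.0 CPM (Atp5k) and 1083 CPM (Atp5b), and the libraries of a gene lie close together.

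The complex IV families each ran almost wholly on the common isoform. Summed over the 6 libraries, Cox4i1, the common subunit 4, had 65671 counts and Cox4i2, the oxygen-responsive lung form, 40. Per transcript length Cox4i1 was 1560 times higher (counting interval 1146 to 2184). Cox4i1 had 305, 284 and 288 CPM in the untreated and 290, 298 and 277 CPM in the doxycycline libraries. Cox4i2 had 9, 6 and 7 counts in the untreated and 5, 4 and 9 in the doxycycline libraries, and took 0.0685% ± 0.00200 against 0.0603% ± 0.0275 of the family (SD, n = 3 each, exact permutation test, two-sided, p = 0.7, adjusted 1). The groups overlapped for both isoforms. All intervals on counts cover counting error only.

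Cox6a2, the heart and muscle form of subunit 6A, had 1, 0 and 5 counts in untreated and 0, 2 and 0 in doxycycline libraries, against 26368 in all for Cox6a1. Cox6b2, the testis form of subunit 6B, had 2, 4 and 0 against 0, 2 and 4, where Cox6b1 had 32997 in all. Cox7b2, another testis form, had 2 counts in 1 untreated library, and Cox8c 2 counts in 1 doxycycline library. These genes were at or under 3 counts, 0.0683 to 0.0944 CPM, in at least 4 of 6 libraries, and a difference between groups was not detectable at this depth. The common partners were abundant in every library. Cox6b1 had 156, 143 and 153 CPM in the untreated and 152, 133 and 140 CPM in the doxycycline libraries. Cox7b had 137, 125 and 136 CPM in the untreated and 145, 119 and 127 CPM in the doxycycline libraries. Both genes had their lowest library in the doxycycline group, replicate 2, and their groups overlapped.

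Cox8b and Cox7a1, the heart and muscle forms of subunits 8 and 7A, were the restricted isoforms with counts in every library besides Cox4i2. Cox8b had 2, 5 and 4 counts in untreated and 6, 2 and 13 in doxycycline libraries, and Cox8a was 961 times higher per transcript length (counting interval 681 to 1405). Cox7a1 had 0.501, 0.24 and 0.614 CPM in the untreated and 0.535, 0.784 and 0.313 CPM in the doxycycline libraries. Cox7a1 was the best detected of them and the only one tested across all genes, with a log2 fold change of 0.26 with an SE of 0.45 and a 95% interval of -0.68 to 1.19 (adjusted p = 0.84 in edgeR). Cox7a2 had 151, 133 and 134 CPM in the untreated and 137, 132 and 124 CPM in the doxycycline libraries. Cox7a2l had 85, 71.8 and 80.8 CPM in the untreated and 77.3, 79.6 and 77.9 CPM in the doxycycline libraries. The groups overlapped for Cox7a1, Cox7a2 and Cox7a2l, and Cox7a2 was 160 times higher per transcript length (counting interval 133 to 194). Cox7a1 took 0.404% ± 0.169 against 0.510% ± 0.213 of its family (SD, n = 3 each, exact permutation test, two-sided, p = 0.5, adjusted 1).

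**Figure D4:**
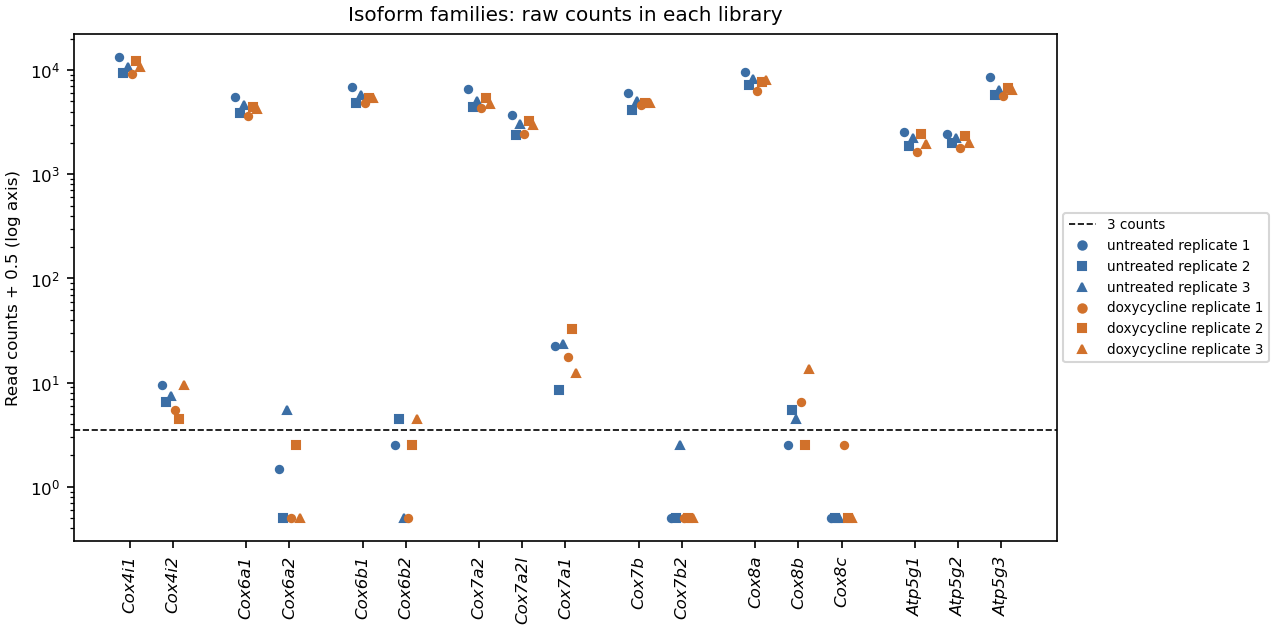
Raw read counts plus 0.5 (log axis) in each library for 7 isoform families, with a dashed line at 3 counts. The common complex IV isoforms lie above 1000 counts and the restricted ones at 32 counts or fewer, and the 3 subunit c genes all lie above 1000.

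In the subunit c family all genes were in use. Atp5g1 had 58.5, 56 and 59 CPM in the untreated and 51.6, 59.4 and 51 CPM in the doxycycline libraries. Atp5g2 had 55.6, 60.2 and 60.1 CPM in the untreated and 56, 57.3 and 52.3 CPM in the doxycycline libraries. Atp5g3 had 194, 174 and 174 CPM in the untreated and 179, 163 and 169 CPM in the doxycycline libraries. Atp5g3 led in every library, and the groups overlapped for each gene. Atp5g3 had 181 ± 11.4 against 170 ± 8.08 CPM, Atp5g2 58.6 ± 2.63 against 55.2 ± 2.61 CPM and Atp5g1 57.8 ± 1.57 against 54.0 ± 4.70 CPM (SD, n = 3 each). As shares of the family's counts these were 60.8% and 60.9% for Atp5g3, 19.8% and 19.7% for Atp5g2 and 19.5% and 19.3% for Atp5g1. Each share differed between the groups by less than the SD within them. The 9 share tests in the isoform families gave unadjusted p-values from 0.3 to 1 and an adjusted p of 1 (exact permutation tests, two-sided), in a design whose smallest possible p is 0.1.

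The order of Atp5g1 depended on the transcript length taken. With the longest transcript it held 3.58% of the family in untreated libraries, and with the shortest RefSeq transcript 22.6%, while Atp5g3 led on each scale. Atp5g2 shared 87.4% of its 50-base stretches with other annotated genes, so its level is the least certain of the 3, and Atp5g3 shared none. Over the coding sequences above, the reads that span the differing bases can separate the 3 genes from one another.

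Isoform proteins differed far more than the subunit c genes. Annotated translations of Cox4i1 and Cox4i2 were 49.7% identical, Cox6a1 and Cox6a2 58.8%, Cox6b1 and Cox6b2 53.5%, Cox7a2 and Cox7a1 56.2%, and Cox8a and Cox8b 42.0%. Cox8a and Cox8c were the most distant pair at 26.1%, and the whole precursors of the 3 subunit c genes, import sequences included, were 71.6% to 77.9% identical.

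Members of like transcript length varied together, and libraries of the same group differed in this. For the 12 tested members under 600 bases, the median deviation from the mean of the 6 libraries (log2 CPM) was 0.12, -0.06 and 0.06 in the untreated and 0.05, -0.07 and -0.10 in the doxycycline libraries, in replicate order. For the 13 members over 1000 bases it was 0.04, -0.03 and 0.01, then -0.02, 0.09 and 0.00. Untreated replicate 1 was thus high in short members and doxycycline replicate 3 low. All 391 tested genes under 600 bases had medians of 0.05, -0.04 and 0.03, then 0.11, -0.04 and -0.02, with doxycycline replicate 1 the highest, which was not so for the members. Pearson's correlation of the deviation with log2 length over 37 members, given as a description since they share libraries, was -0.61, 0.17 and -0.25 in the untreated and -0.42, 0.23 and 0.43 in the doxycycline libraries. The 4 members lower at an unadjusted p under 0.05 in edgeR, Atp5l, Cox8a, Cox6a1 and Cox6c, have transcripts of 503 to 571 bases. Of the other tested members under 600 bases, Atp5k, Atp5e and Uqcrh had log2 fold changes of -0.16, -0.13 and -0.09. Uqcr10, Uqcrb, Cox7c, Uqcr11 and Cox7a1 had -0.01, -0.01, -0.03, 0.01 and 0.26. The part of transcript length in these values was not tested. When libraries were corrected for GC content and length, the log2 fold changes of the first 4 were nearer to 0. They were -0.142 for Atp5l, -0.095 for Cox8a, -0.094 for Cox6a1 and -0.079 for Cox6c. Their adjusted p-values in edgeR were 0.0961, 0.163, 0.162 and 0.155 with the correction, in the same order. Without it they were 0.0846, 0.135, 0.148 and 0.214. With the correction 5 members were lower at an unadjusted p under 0.05, where 10.9% of all tested genes were. The medians of the complexes under this correction were 0.029 for complex III, -0.034 for complex IV and -0.045 for the ATP synthase, against -0.002, -0.061 and -0.073 without it.

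**Figure D5:**
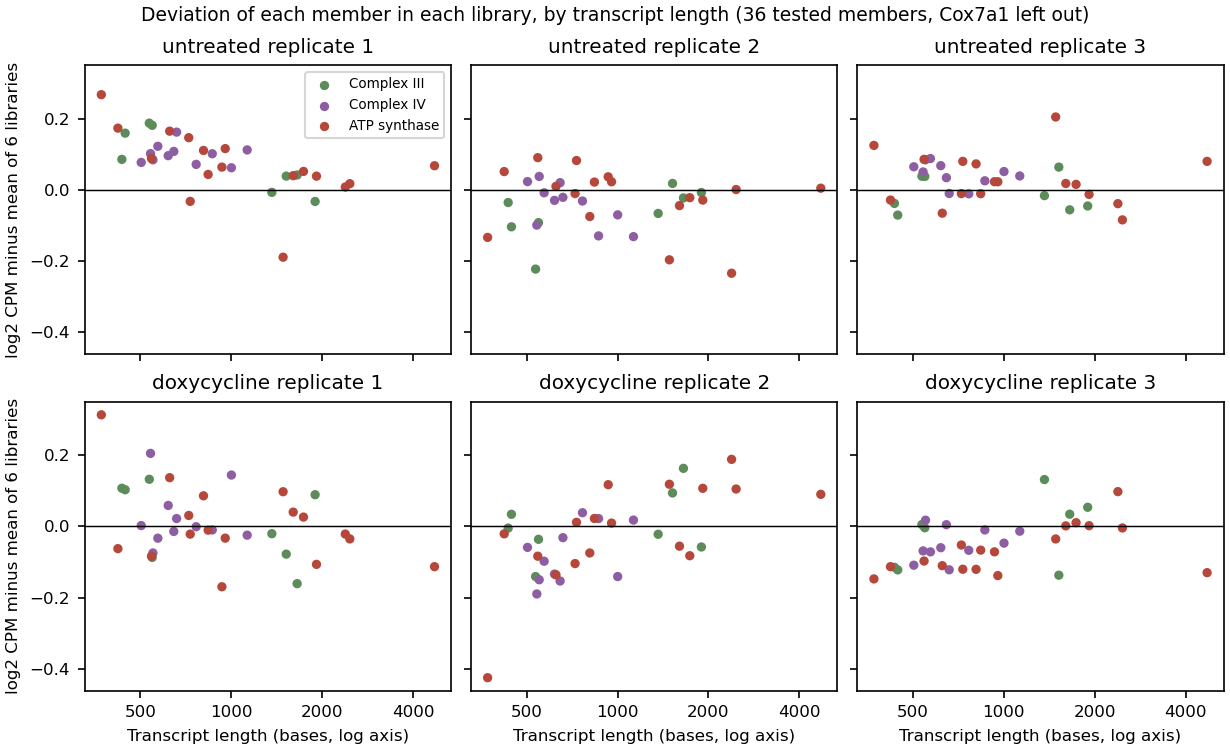
Deviation of each tested member other than Cox7a1 from its mean over the 6 libraries (log2 CPM) against transcript length (bases, log axis), one panel per library and coloured by complex. Short members lie mostly above 0 in untreated replicate 1 and below 0 in doxycycline replicate 3.

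Other respiratory lists gave a frame for these values. Complex I, which feeds electrons from NADH, was taken as the symbols beginning with Ndufa, Ndufb, Ndufc, Ndufs or Ndufv. These also include the Ndufaf assembly factors, Ndufa4 and Ndufa4l2, so the values are not those of its subunits alone. Of 43 tested genes, 29 were below and 14 above 0, with a median log2 fold change of -0.06. The 1 call was Ndufv3, lower at -0.35 (edgeR adjusted p = 0.0098, and 0.118 without untreated replicate 3 and 0.0749 without doxycycline replicate 3). Complex II, which feeds electrons from succinate, had 0 calls among 4 genes. The 77 mitochondrial ribosomal protein genes had 0 calls and a median of 0.03, with 48 above 0. The 12 tested biogenesis factors had 0 calls, and Tfam, which activates mitochondrial DNA, had 44.2 ± 1.58 against 43.9 ± 0.985 CPM (SD, n = 3 each). These counts are from the edgeR test. Before adjustment, with p below 0.05, complex I had 5 lower and 1 higher and complex II 1 lower and 0 higher. The ribosomal genes had 0 lower and 4 higher and the biogenesis factors 0 lower and 2 higher. The background over all tested genes was 8.95% for lower values and 7.25% for higher ones. Differences in direction between these lists were not tested.

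Of 5 tested genes that tie respiration to oxygen, 2 passed the edgeR test, both lower, where 2.16% of all tested genes were called lower. The list was written with earlier results of these data known, so the count is not independent of them. Pdk1 had 81.1, 82.5 and 93.1 CPM in the untreated and 68.7, 62.3 and 61.9 CPM in the doxycycline libraries. Pdk1, the kinase that turns off pyruvate entry into the citric acid cycle, fell in every doxycycline library, by 0.41 on the log2 scale with an SE of 0.06 (adjusted p = 0.000342 in edgeR). Bnip3 had 51.7, 63.7 and 76.4 CPM in the untreated and 33.5, 29.2 and 28.5 CPM in the doxycycline libraries. Bnip3, a receptor for removal of mitochondria, fell by 1.07 with an SE of 0.13 (adjusted p = 0.00129 in edgeR), with no overlap between groups, and without doxycycline replicate 2 its adjusted p was 0.152. Higd1a, which binds complex IV, had 42.0 ± 2.78 against 35.8 ± 4.50 CPM (SD, n = 3 each, edgeR adjusted p = 0.127). Lonp1 and Chchd2, the remaining tested genes of the list, had log2 fold changes of -0.01 and -0.09 (adjusted p = 0.943 and 0.452 in edgeR). Cox4i2 and Ndufa4l2, oxygen-responsive genes linked to complex IV, stayed under 0.25 CPM in every library.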

How the data were processed

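Total RNA of 6 cultures was sequenced after ribosomal RNA depletion with a strand-marking kit. The authors deposited raw read counts per gene symbol for 24421 genes, made with STAR and featureCounts (Subread 1.6.2) on mm10/GRCm38 after bcl2fastq 2.20, per the submitters' processing notes and the study's methods. Whether strand was used in counting is not given in the sources used here. The 6 columns were matched to the labels by name, and 0 columns were unmatched.

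Counts were tested with edgeR 4.0.16 (R 4.3.3; filterByExpr, TMM, robust quasi-likelihood fit on group, Benjamini-Hochberg over all tested genes). The study used DESeq2, which served here, in version 1.42.0, as an alternative beside limma voom 3.58.1. CPM were computed with TMM-scaled library sizes, and CPM per kb used the longest GENCODE vM21 transcript linked to RefSeq, where one was, for lengths. Isoform shares were compared with exact two-sided permutation tests. A floor of 3 counts is 0.0683 to 0.0944 CPM in these libraries. The common coefficient of variation between libraries was 6%. The p-value of a gene rests on the spread between these 3 cultures per group, moderated by the spread over all tested genes.

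The members and gene lists were chosen with earlier results of these data known. Values per library were given for members past the threshold, for the isoform families, for the 3 tested members of each complex with the largest log2 fold change in size, and, chosen after their values were seen, for Cox5a, Atp5j2, Cox6c, Atp5b, Pdk1 and Bnip3. The replicate numbers did not pair the libraries (correlations of same-numbered deviations -0.04, 0.00 and 0.02). Alternatives varied the scaling, filter, test, replicate block, GC and length correction, Rn45s, transcript length and each library.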

Additional observations from a re-analysis of the deposited data

How the results depend on the processing

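Over 17 alternative fits, 628 values of the tested members were recomputed. Of these 580 kept their direction and their side of the threshold, 2 gained a call and 46 changed sign, in 13 members, all with a log2 fold change near 0 except Cox7a1. The other 24 members never changed sign. Calls among members were 0 higher throughout and 0 lower, except 1 lower with DESeq2's Wald test and 0 to 1 lower when a library was left out. Calls over all genes were 121 higher and 283 lower. They were 210 and 439 without a filter, 403 and 524 with the GC content and length correction, 44 to 269 and 116 to 487 with a library left out, and 185 higher with DESeq2. The median log2 fold changes ranged from -0.05 to 0.054 for complex III, -0.126 to -0.017 for complex IV and -0.076 to -0.031 for the ATP synthase with a library left out. With the GC content and length correction they were 0.029, -0.034 and -0.045. No isoform share test could pass 0.05 in this design. The causes were not tested.

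Same-numbered libraries did not deviate together. With the replicate number as a block, 0 members were called, 5 were lower at an unadjusted p under 0.05, and Cox5b was 0.001. With the replicate block and the GC content and length correction together, added after the data were seen, 332 genes were higher and 469 lower. In that fit Atp5b was -0.006, Cox5b 0.024, Uqcrb 0.043, Uqcr10 0.023, Cox4i1 0.014 and Cox7b 0.013.

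With the correction alone Atp5b was -0.004, Cox5b 0.023, Uqcrb 0.035, Uqcr10 0.023, Cox4i1 0.014 and Cox7b 0.012. Uqcr11 was -0.00029 with upper-quartile scaling, -0.004 with library size only and -0.00028 with limma voom, and Atp5b -0.003 and -0.006 with the first 2 scalings. With a library left out, the ranges were -0.043 to 0.095 for Uqcr11, -0.051 to 0.056 for Atp5b, -0.062 to 0.05 for Cox5b, -0.113 to 0.086 for Uqcrb, -0.066 to 0.045 for Uqcr10, -0.046 to 0.012 for Cox4i1, -0.109 to 0.034 for Cox7b, -0.082 to 0.036 for Cox7a2l, -0.151 to 0.049 for Cox7c, -0.033 to 0.015 for Atp5f1, -0.128 to 0.54 for Cox7a1, -0.048 to 0.113 for Uqcrc1 and -0.051 to 0.003 for Atp5c1.

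With 3 libraries per group and intervals of about 0.1 on either side, small shifts shared by many members cannot be resolved gene by gene. Short transcripts and reads shared with pseudogenes limit the certainty of single members, and restricted isoforms near the floor allow no comparison between groups.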
